A study of Homo sapiens with 12 samples.

Results

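A group of 10 human genes was followed after loss of YAP and TAZ, the transcriptional coactivators of the Hippo pathway. The genes are 5 transcription factors that drive the epithelial-to-mesenchymal transition (EMT), namely SNAI1, SNAI2, ZEB1, ZEB2 and TWIST1, the mesenchymal intermediate filament gene VIM, and 4 factors that maintain epithelial identity, namely GRHL2, OVOL1, ESRP1 and ELF3. They were selected by name through their Ensembl identifiers, and all 10 were found among the 60617 gene identifiers measured. Total RNA was sequenced from A549, an established human lung adenocarcinoma line, 24 hours after transfection, with 4 libraries in each of 3 groups described as biological replicates. The groups were cells given control siRNA (siCo) and cells given the first (siYAP/TAZ#1) or the second (siYAP/TAZ#2) of 2 different siRNA combinations against YAP and TAZ. All 12 libraries came from this single line, grown in medium with serum, and both comparisons with siCo share the same 4 control libraries.

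In EMT, SNAI and ZEB proteins bind E-box sequences and recruit corepressors to the promoters of epithelial genes such as CDH1, which encodes E-cadherin. Epithelial factors oppose them: GRHL2 and OVOL proteins act against ZEB1, ESRP proteins direct the epithelial splicing pattern of transcripts, and ELF3 is an epithelial ETS factor. The microRNAs of the miR-200 family target ZEB1 and ZEB2 transcripts, and ZEB proteins in turn repress the miR-200 genes, so that the sides inhibit each other.

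The mature miR-200 sequences are shown because they fall into 2 seed groups that both belong to this loop. They are taken from RefSeq (GRCh38.p14), written 5′ to 3′, with the seed, bases 2 to 8, in capitals. The first 3 share the seed AAUACUG and the other 2 share AACACUG.
hsa-miR-200b-3p: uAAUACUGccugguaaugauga
hsa-miR-200c-3p: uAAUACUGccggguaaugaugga
hsa-miR-429: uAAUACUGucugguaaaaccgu
hsa-miR-141-3p: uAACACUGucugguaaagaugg
hsa-miR-200a-3p: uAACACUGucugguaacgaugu
Mature microRNAs were not analysed here. MIR200CHG, the host gene of miR-200c and miR-141, had 1 count in a single siCo library, 4 counts in a single siYAP/TAZ#1 library and 0 counts in the other 10 libraries. MIR205HG, the host of miR-205, had between 1 and 13 counts per library. Neither host transcript was abundant enough to test.

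The core E-box bound by SNAI and ZEB proteins was searched for as CACCTG on both strands in the 250 bases before RefSeq start sites, because it is the site through which these repressors act. RefSeq windows were matched for ZEB1, ZEB2, VIM, ELF3 and MIR200CHG. The ELF3 window held 1 match, 120 bases before the start site, and the MIR200CHG window held 1, 78 bases before it. Of the 7 ZEB1 windows, 1 held a match 57 bases before its start site and 1 held matches 242 and 85 bases before its own. The windows of VIM and ZEB2 held none. In GENCODE the ELF3 window lay inside an ELF3 exon over all 250 bases. Both ZEB1 windows with matches overlapped exons of the antisense gene ZEB1-AS1, and 1 of them also overlapped ZEB1 exons. These windows are thus partly transcribed sequence. Stretches of 30 bases around the matches are written on the plus strand of GRCh38.p14 with the match in capitals, so that CAGGTG is the same core read on the other strand.
ELF3, chr1:202010455-202010484: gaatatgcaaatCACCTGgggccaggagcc
MIR200CHG, chr12:6963155-6963184: ggcaggaggacaCACCTGtgcgcagggtgg
ZEB1, chr10:31318348-31318377: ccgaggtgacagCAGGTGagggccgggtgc
ZEB1, chr10:31318966-31318995: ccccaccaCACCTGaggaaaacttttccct
ZEB1, chr10:31319119-31319148: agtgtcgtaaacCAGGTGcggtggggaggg
Such a match stood in 17.5% of all 35116 RefSeq windows of that length. GGAATG, the core bound by the TEAD partners of YAP and TAZ, was found in none of the windows of these genes and in 11.9% of all windows. A match is a sequence description and shows no binding.

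The targeted genes were low in every library given siRNA against them. YAP1 fell from 121.2 CPM (a gene's counts relative to the library total, after TMM scaling for library composition) in siCo to 18.7 with siYAP/TAZ#1 and 17.4 with siYAP/TAZ#2. WWTR1, the gene for TAZ, fell from 240.6 CPM to 32.9 and 32.4 CPM. Library totals were 29617111 to 38264296 estimated counts. The TMM factors were 0.887 to 0.944 in siCo and 0.967 to 1.10 in the treated libraries, so the choice of scaling bears on every modest decrease reported here. Without these factors, the median log2 difference from siCo over all 21581 genes tested moved from 0.02 to 0.20 for siYAP/TAZ#1, and for siYAP/TAZ#2 it moved from 0.02 to 0.21.

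A549 cells expressed both sides of the axis at very unequal levels. Deposited TPM, a transcript measure scaled per length, put VIM first in siCo with a mean of 986 TPM (763.7 to 1219 over the 4 libraries) and ELF3 second with 50.8 TPM (37.0 to 60.7). The EMT transcription factors followed, with means of 7.24 TPM for TWIST1, 6.59 for ZEB1, 4.52 for SNAI1, 4.43 for SNAI2 and 3.79 for ZEB2. Neighbours among these 5 overlapped in their library values, whereas VIM and ELF3, ELF3 and TWIST1, and ZEB2 and ESRP1 did not. ESRP1, GRHL2 and OVOL1 came last with means of 0.0954, 0.0584 and 0.00454 TPM. TPM values within a library are compressed by a pair of microRNA gene entries, MIR3648-1 and MIR3648-2, which were listed with an identical 4.80% to 19.7% of all TPM each. Unscaled TPM, without TMM factors, shifted all genes upward. The median log2 difference from siCo was 0.33 with siYAP/TAZ#1 and 0.40 with siYAP/TAZ#2 at a pseudocount of 0.1. At a pseudocount of 1 the medians were 0.19 and 0.24. Differences near 0 on that scale thus lay below the median gene.

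**Figure D1:**
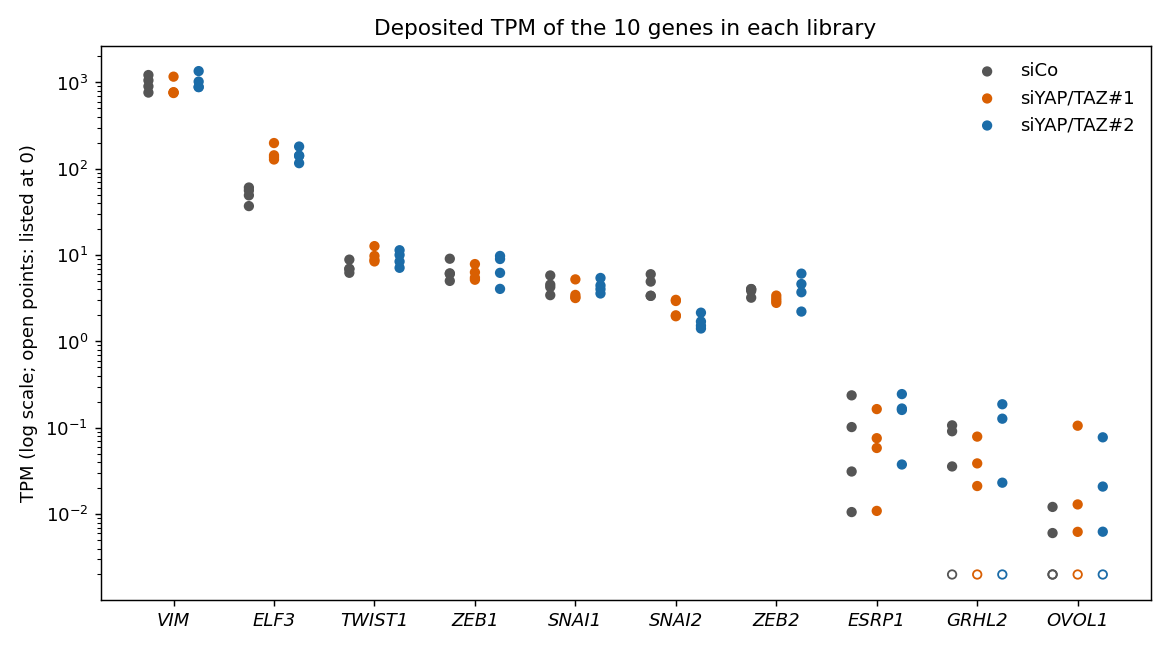
Deposited TPM of the 10 genes on a log axis, one point per library, 4 libraries per group, with values listed at 0 drawn as open points at the bottom. VIM lies between 754.3 and 1354 TPM, ELF3 between 37.0 and 199 TPM, the EMT transcription factors between 1 and 13 TPM, and ESRP1, GRHL2 and OVOL1 below 0.3 TPM.

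The order of the upper genes was the same in the treated groups except for SNAI2. With siYAP/TAZ#1, SNAI2 was seventh at 2.49 TPM, below ZEB2 at 3.08 TPM, and these 2 overlapped. With siYAP/TAZ#2 it was seventh at 1.70 TPM (1.41 to 2.16), below every ZEB2 library (2.22 to 6.10 TPM). The label of the gene set names opposing sides, but ELF3 was the only one of its 4 epithelial factors measured at a level that could be tested.

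Counts were tested with edgeR's quasi-likelihood test over all 21581 genes, and a gene was called at a Benjamini-Hochberg adjusted p under 0.05. With siYAP/TAZ#1, 5 of the 7 members that passed the filter on low counts were called lower and 1 higher, where 34.9% of all genes tested were called, 18.5% lower and 16.4% higher. With siYAP/TAZ#2, 4 were called lower and 1 higher, against a background of 38.2%, made up of 19.2% lower and 19% higher. SNAI1, SNAI2, ZEB1 and VIM were lower with both combinations, ELF3 was higher with both, ZEB2 was lower with siYAP/TAZ#1 alone and TWIST1 was called with neither. The library values did not overlap with those of siCo for 5 members below and 1 above with siYAP/TAZ#1, against 20.7% and 18% of all genes (38.7% in all), and for 4 below and 1 above with siYAP/TAZ#2, against 17.7% and 17% (34.6% in all). The median log2 difference over the 7 members was -0.55 and -0.36, beside 0.02 and 0.02 over all genes tested. The members were chosen with earlier results of these data known, so these counts are description only. In bulk RNA, fewer cells that express a gene and less of its RNA per cell cannot be told apart.

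**Figure D2:**
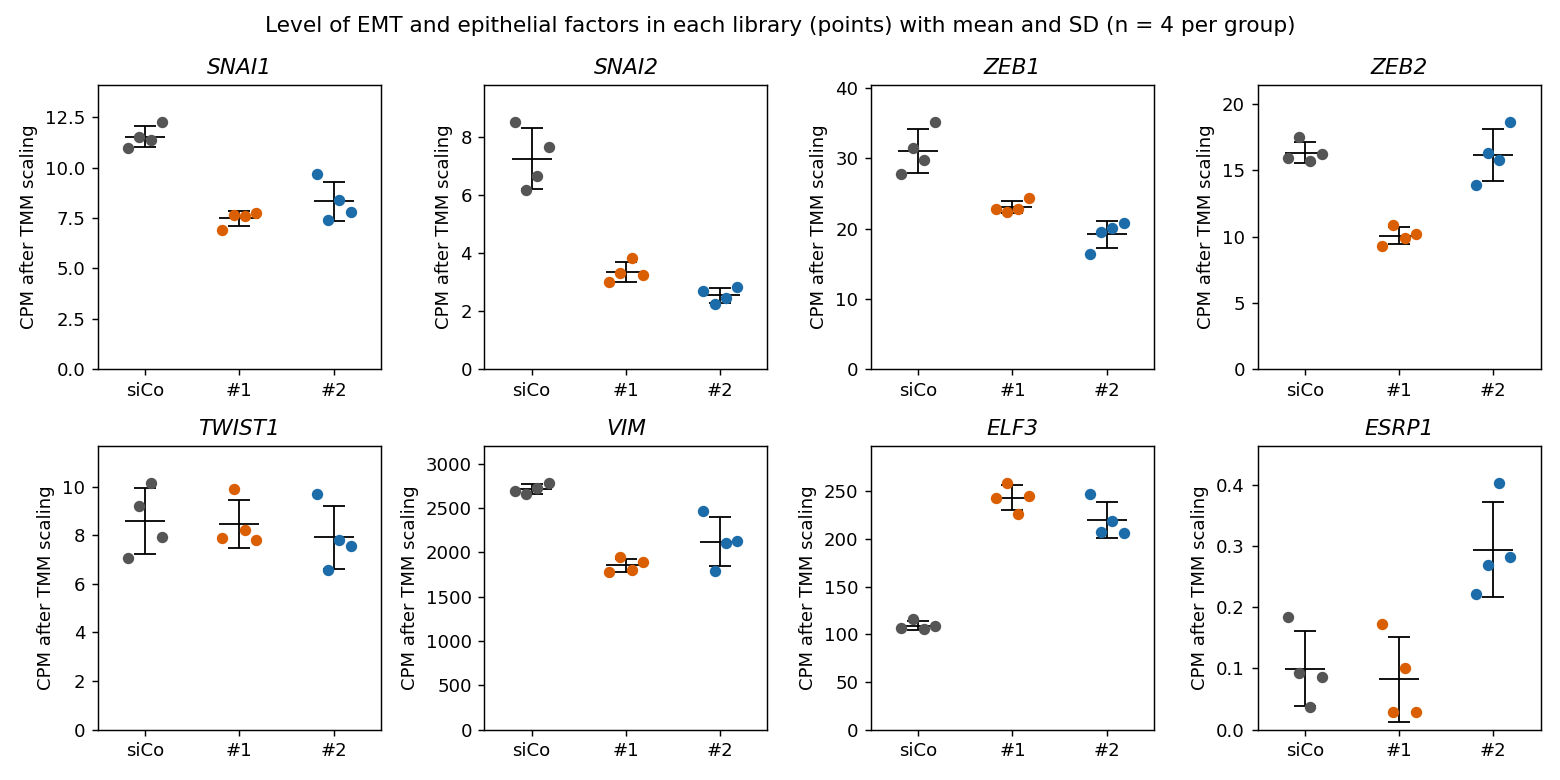
CPM after TMM scaling of the 7 tested members and of ESRP1 in siCo, siYAP/TAZ#1 and siYAP/TAZ#2, with one point per library and the mean and SD of 4 libraries. SNAI1, SNAI2, ZEB1 and VIM lie lower in both treated groups on this scale, ELF3 lies higher, and ZEB2 is lower with siYAP/TAZ#1 alone. On unscaled TPM the differences of ZEB1 and VIM with siYAP/TAZ#2 were slightly above 0. They were below the median over all genes tested, which was 0.40 there (pseudocount 0.1).

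SNAI2, the zinc finger repressor also called SLUG, had the largest decrease among the members. It lies on chromosome 8 (GRCh38, GENCODE, 48917604 to 48921740, minus strand). The siCo libraries held 8.54, 6.19, 6.68 and 7.68 CPM. The siYAP/TAZ#1 libraries held 2.998, 3.32, 3.82 and 3.23 CPM. The siYAP/TAZ#2 libraries held 2.68, 2.24, 2.44 and 2.82 CPM. Every treated library was below every control library, and every siYAP/TAZ#2 library was below every siYAP/TAZ#1 library. SNAI2 fell by 1.12 ± 0.13 (SE) on the log2 scale with siYAP/TAZ#1 (edgeR adjusted p = 3.77e-06) and by 1.52 ± 0.13 with siYAP/TAZ#2 (edgeR adjusted p = 1.59e-07). These libraries retained 46.0% and 35.0% of the siCo level. The difference between the combinations was -0.40 ± 0.14 and missed the threshold (edgeR adjusted p = 0.0603), while DESeq2 gave an adjusted p of 0.0434. Library size alone left both decreases called. On the deposited TPM with a pseudocount of 0.1, limma kept the decrease with siYAP/TAZ#2 (-1.31, adjusted p = 0.0033) but not that with siYAP/TAZ#1 (-0.79, adjusted p = 0.0715).

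SNAI1, the related repressor SNAIL (chromosome 20, 49982999 to 49988886, plus strand), changed less. Its siCo libraries held 10.98, 11.5, 11.4 and 12.3 CPM. With siYAP/TAZ#1 they held 6.92, 7.66, 7.57 and 7.73 CPM. With siYAP/TAZ#2 they held 9.66, 7.40, 8.41 and 7.80 CPM. All 8 treated libraries were below all 4 controls, and the treated groups overlapped with each other. SNAI1 fell by 0.63 ± 0.090 on the log2 scale with siYAP/TAZ#1 (edgeR adjusted p = 4.43e-05) and by 0.47 ± 0.090 with siYAP/TAZ#2 (edgeR adjusted p = 0.000514). The difference between the combinations was 0.15 ± 0.091 (edgeR adjusted p = 0.327). On TPM with a pseudocount of 0.1 both calls were lost, at -0.26 (limma adjusted p = 0.521) and -0.04 (limma adjusted p = 0.925). The medians over all genes tested were 0.33 and 0.40 there. SNAI3, the third SNAI gene, moved the other way at a very low level, from 0.133 CPM to 0.385 and 0.397 CPM, with log2 differences of 1.49 ± 0.51 and 1.54 ± 0.51 (edgeR adjusted p = 0.0258 and 0.0199).

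ZEB1, a zinc finger and homeodomain repressor (chromosome 10, 31318495 to 31529814, plus strand), was lower with both combinations by counts and was called with neither on unscaled TPM. Its siCo libraries held 27.8, 31.5, 29.7 and 35.2 CPM. After siYAP/TAZ#1 the values were 22.8, 22.4, 22.8 and 24.3 CPM. After siYAP/TAZ#2 the values were 16.4, 19.5, 20.1 and 20.9 CPM. The 3 groups did not overlap, with siCo highest and siYAP/TAZ#2 lowest. ZEB1 fell by 0.43 ± 0.085 on the log2 scale with siYAP/TAZ#1 (edgeR adjusted p = 0.000798) and by 0.69 ± 0.085 with siYAP/TAZ#2 (edgeR adjusted p = 7.75e-06). With library size alone the first decrease was -0.25 and no longer called (edgeR adjusted p = 0.0748), and the second was -0.50 (edgeR adjusted p = 0.00127).

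The TPM values of ZEB1 did not follow its counts. Mean TPM was 6.59 in siCo, 6.22 with siYAP/TAZ#1 and 7.28 with siYAP/TAZ#2, and limma on log2(TPM + 0.1) gave -0.07 for siYAP/TAZ#1 (adjusted p = 0.891) and 0.10 for siYAP/TAZ#2 (adjusted p = 0.815). Over all genes tested the medians on that scale were 0.33 and 0.40. When the TMM factors were applied to TPM, the differences were -0.41 (limma adjusted p = 0.0366) and -0.33 (limma adjusted p = 0.0793). The ratio of estimated counts to TPM, divided by the library's typical ratio, reflects the effective length of the transcripts to which reads were assigned. For ZEB1 it was 80.9%, 63.5%, 91.7% and 80.1% of the siCo mean in the siYAP/TAZ#2 libraries. The siCo libraries lay between 96.4% and 103.7%, and the siYAP/TAZ#1 libraries between 88.5% and 112.8%. All 4 siYAP/TAZ#2 libraries thus lay below all 4 controls in this ratio. A change in which ZEB1 transcripts were used was not tested.

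ZEB2, its paralog (chromosome 2, 144364364 to 144524583, minus strand), separated the combinations. Its siCo libraries held 15.9, 17.5, 15.7 and 16.3 CPM. The siYAP/TAZ#1 libraries held 9.28, 10.9, 9.92 and 10.2 CPM. The siYAP/TAZ#2 libraries held 13.9, 16.3, 15.8 and 18.7 CPM. Only the siYAP/TAZ#1 libraries stood below the controls, and they also lay below every siYAP/TAZ#2 library. ZEB2 fell by 0.70 ± 0.089 on the log2 scale with siYAP/TAZ#1 (edgeR adjusted p = 1.42e-05). On unscaled TPM with a pseudocount of 0.1 this call was lost, at -0.29 (limma adjusted p = 0.509), beside a median of 0.33 over all genes tested. With TMM factors the ZEB2 difference was -0.63 (limma adjusted p = 0.0249). With siYAP/TAZ#2 the difference was -0.02 ± 0.088 (edgeR adjusted p = 0.909), and its sign depended on the scaling. It was 0.18 with library size alone, beside a median of 0.21 over all genes tested. The direct comparison of siYAP/TAZ#2 with siYAP/TAZ#1 gave 0.68 ± 0.089 (edgeR adjusted p = 4.22e-05). On TPM with TMM factors the difference between the combinations was 0.26 and not called (limma adjusted p = 0.531). The counts per TPM of ZEB2 in siYAP/TAZ#2 were 126.7% ± 10.5 (SD, n = 4) of the siCo mean, but the controls themselves ranged from 69.2% to 118.4% and overlapped with them.

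**Figure D3:**
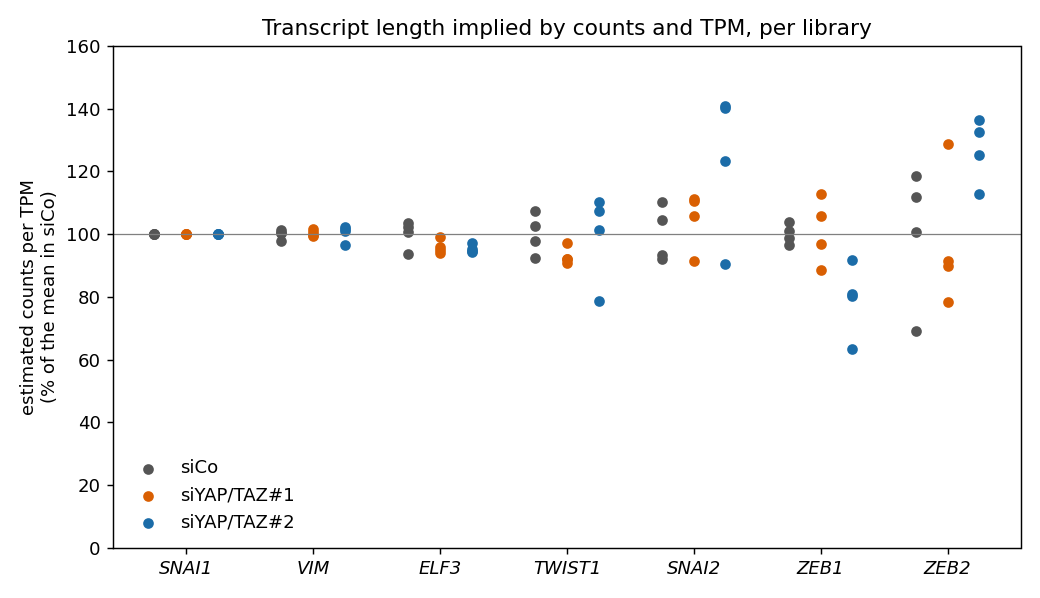
Estimated counts per TPM of each tested member, in percent of the siCo mean, one point per library. SNAI1 and VIM stay within 4 percentage points of 100%, ZEB1 lies at 63.5% to 91.7% with siYAP/TAZ#2, and SNAI2 and ZEB2 spread widely.

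TWIST1, a basic helix-loop-helix factor (chromosome 7, 19020991 to 19117672, minus strand), did not pass the test in any comparison. Its siCo libraries held 7.07, 9.21, 10.2 and 7.91 CPM. With siYAP/TAZ#1 they held 7.90, 9.92, 8.22 and 7.79 CPM. With siYAP/TAZ#2 they held 9.69, 6.59, 7.82 and 7.58 CPM. All groups overlapped. The log2 differences from siCo were -0.02 ± 0.13 (edgeR adjusted p = 0.931) and -0.11 ± 0.13 (edgeR adjusted p = 0.552). Both were positive with library size alone (0.16 and 0.07), beside medians of 0.20 and 0.21 over all genes tested. TWIST2, the paralog, had 18.7 CPM in siCo, 15.6 with siYAP/TAZ#1 and 17.6 with siYAP/TAZ#2 and was also not called (edgeR adjusted p = 0.183 and 0.694).

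VIM, which encodes vimentin, the intermediate filament of mesenchymal cells (chromosome 10, 17228259 to 17237593, plus strand), was expressed far above all other members. Its siCo libraries held 2690, 2661, 2734 and 2788 CPM. After siYAP/TAZ#1 the values were 1781, 1945, 1801 and 1891 CPM. After siYAP/TAZ#2 the values were 2470, 1792, 2106 and 2125 CPM. All treated libraries were below all controls on this scale, and the siYAP/TAZ#2 libraries spread over a wider range than the others. VIM fell by 0.55 ± 0.077 on the log2 scale with siYAP/TAZ#1 (edgeR adjusted p = 3.19e-05) and by 0.36 ± 0.077 with siYAP/TAZ#2 (edgeR adjusted p = 0.00144). VIM retained 68.2% and 78.1% of its control level. Its counts per TPM stayed at 100.3% of siCo in both treated groups. On TPM alone, with a pseudocount of 1, the VIM differences were -0.19 (limma adjusted p = 0.601) and 0.07 (limma adjusted p = 0.831), beside medians of 0.19 and 0.24 over all genes tested. On TPM with TMM factors the VIM differences were -0.55 (limma adjusted p = 0.000809) and -0.36 (limma adjusted p = 0.00986).

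ELF3, an ETS transcription factor of epithelia (chromosome 1, 202007945 to 202017188, plus strand), rose with both combinations. Its siCo libraries held 106.4, 115.8, 105.1 and 108.4 CPM. The siYAP/TAZ#1 libraries held 243.2, 258.8, 226.4 and 244.5 CPM. The siYAP/TAZ#2 libraries held 246.8, 207.1, 219.0 and 206.2 CPM. Every treated library was above every control, and the treated groups overlapped. ELF3 rose by 1.16 ± 0.066 on the log2 scale with siYAP/TAZ#1 (edgeR adjusted p = 2.22e-09) and by 1.01 ± 0.066 with siYAP/TAZ#2 (edgeR adjusted p = 8.04e-09). It was called higher with both combinations in all 21 alternative analyses, on TPM as well as on counts, with log2 differences from 0.96 to 1.58. ELF3-AS1, an antisense transcript looked up after the ELF3 values were seen, was at 3.90 to 6.65 CPM in siCo, 8.56 to 10.0 CPM with siYAP/TAZ#1, and 7.81 to 9.0 CPM with siYAP/TAZ#2. Whether the counting used strand is not given in the sources used here, so reads of the 2 transcripts may not be separable.

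ESRP1, an epithelial splicing regulator on chromosome 8, was close to the limit of detection. Its counts were 6, 3, 1 and 3 in siCo, 6, 1, 4 and 1 with siYAP/TAZ#1, and 7, 9, 15 and 9 with siYAP/TAZ#2. The sums were 13 (exact Poisson 95% interval 6.92 to 22.2), 12 (6.20 to 20.96) and 40 (28.6 to 54.5), intervals that cover counting error only. Each siYAP/TAZ#2 library thus held more counts than each library of the other groups, although the TPM values overlapped (0.0376 to 0.246 against 0.0106 to 0.238 in siCo). With no filter on low counts, over 43210 genes, the log2 difference of siYAP/TAZ#2 from siCo was 1.52 ± 0.65 and missed the threshold (edgeR adjusted p = 0.0884), as did that from siYAP/TAZ#1 (1.78 ± 0.66, edgeR adjusted p = 0.0811). ESRP2, its paralog, was at 0.417 CPM in siCo and fell with siYAP/TAZ#1 to 0.177 CPM (-1.23 ± 0.39, edgeR adjusted p = 0.02). With siYAP/TAZ#2 it was at 0.331 CPM (edgeR adjusted p = 0.49).

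GRHL2, a grainyhead factor that activates epithelial junction genes, also on chromosome 8, had a sum of 11 counts in siCo, 7 with siYAP/TAZ#1 and 13 with siYAP/TAZ#2. No library held more than 7. OVOL1, a zinc finger repressor of mesenchymal genes on chromosome 11 (65787022 to 65797219), had sums of 2, 4 and 3 counts in the same order. With no filter on low counts, over 43210 genes, the log2 differences of GRHL2 from siCo were -0.74 ± 1.04 (edgeR adjusted p = 0.702) and 0.21 ± 0.96 (edgeR adjusted p = 0.959). Those of OVOL1 were 0.69 ± 1.62 and 0.43 ± 1.68, and neither was called. Differences of this size were not detectable at this depth, where 3 counts correspond to 0.075 to 0.113 CPM. Among their paralogs, GRHL3 rose from 0.526 CPM to 1.05 and 1.47 CPM (0.98 ± 0.33 and 1.45 ± 0.32, edgeR adjusted p = 0.0268 and 0.00169). GRHL1 and OVOL2 were not called with either combination.

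**Figure D4:**
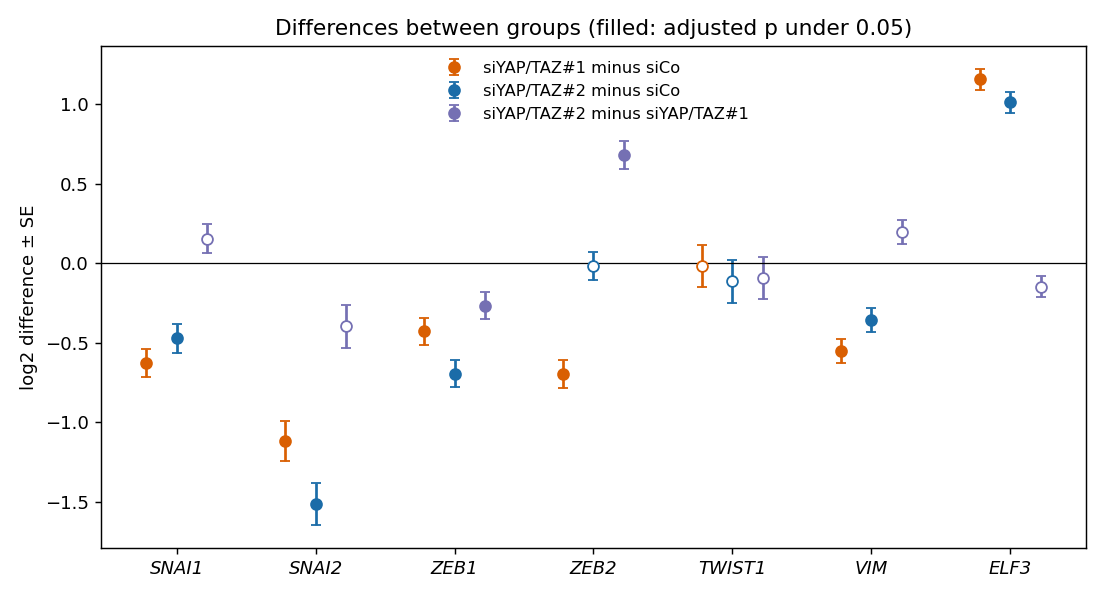
Log2 differences of the 7 tested members with SE, for both comparisons with siCo and for siYAP/TAZ#2 minus siYAP/TAZ#1, with filled points where the edgeR adjusted p was under 0.05. SNAI2 lies lowest at -1.12 and -1.52, ELF3 highest at 1.16 and 1.01, and ZEB2 is the member where the combinations stand farthest apart, by 0.68. These are counts after TMM scaling, and on unscaled TPM the differences of ZEB1 and VIM with siYAP/TAZ#2 were slightly above 0. The median over all genes tested was 0.40 on that scale (pseudocount 0.1).

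Compared directly, the combinations differed for 2 of the 7 tested members, ZEB1 lower and ZEB2 higher with siYAP/TAZ#2, where 6.92% of all genes were called lower and 8.2% higher. Library values did not overlap for 3 members, SNAI2 and ZEB1 below and ZEB2 above, against 8.91% and 9.31% of all genes. The ZEB1 difference of -0.27 ± 0.086 was marginal (edgeR adjusted p = 0.0471) and kept its call in 6 of 21 alternatives, while its sign turned in 3. Replicate 1 of siYAP/TAZ#2 was the highest of its group for SNAI1, TWIST1, VIM and ELF3 and the lowest for ZEB1 and ZEB2, and it had the lowest TMM factor of the treated libraries, 0.967. Without it, ELF3 differed between the combinations by -0.20 (edgeR adjusted p = 0.00585), SNAI2 by -0.42 (edgeR adjusted p = 0.0491) and ZEB1 by -0.19 with no call (edgeR adjusted p = 0.0736). Without replicate 2 of siYAP/TAZ#2, VIM was higher with siYAP/TAZ#2 than with siYAP/TAZ#1 by 0.27 (edgeR adjusted p = 0.00876). No library left out changed a call of a member against siCo.

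Other genes linked to the members were counted in lists, each beside the background of all genes tested. After TMM scaling this was 18.5% called lower and 16.4% higher with siYAP/TAZ#1, and 19.2% and 19% with siYAP/TAZ#2. Under library size alone it was 1905 lower and 5876 higher of 21581 genes with siYAP/TAZ#1, and 2037 and 6538 with siYAP/TAZ#2. The lists were chosen with earlier results of these data known, so counts above the background are description only. Of 21 other EMT-linked transcription factors tested, 9 were lower and 3 higher with siYAP/TAZ#1, and 8 and 4 with siYAP/TAZ#2, with median log2 differences of -0.27 and -0.15. With library size alone the counts were 7 and 6, and 6 and 5. The medians were then -0.09 and 0.03, beside 0.20 and 0.21 over all genes tested. The counts of higher genes after TMM scaling lay near the background, and those of lower genes above it. FOSL1, an AP-1 subunit, fell from 120.0 CPM to 26.5 and 24.4 CPM (-2.18 ± 0.11 and -2.30 ± 0.11, edgeR adjusted p = 5.92e-10 and 2.88e-10). RUNX2, ETS1, HMGA2 and FOXC2 also fell with both combinations, by between 1.02 and 1.56 on the log2 scale, and SOX4 and ZNF703 rose.

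Genes for proteins that SNAI and ZEB factors recruit were called in one direction at the RNA level with TMM scaling, but in both directions with library size alone. Of 20 corepressors and chromatin partners tested, 14 were lower and 0 higher with each combination, and 13 were lower with both. Their median log2 differences were small, -0.31 and -0.24. The counts of lower genes stood above the background of 18.5% and 19.2%. The LIM protein AJUBA, a SNAI corepressor, fell by 0.92 ± 0.093 and 1.14 ± 0.093 (edgeR adjusted p = 1.16e-06 and 1.04e-07), and the demethylase KDM1A fell by 0.43 ± 0.060 and 0.51 ± 0.060 (edgeR adjusted p = 3.6e-05 and 5.61e-06). SUZ12 and BMI1, Polycomb subunit genes, fell by 0.66 and 0.50 with siYAP/TAZ#1 and by 0.78 and 0.38 with siYAP/TAZ#2. WTIP, an AJUBA relative, fell by 0.47 and 0.82. With library size alone, 8 were lower and 2 higher with siYAP/TAZ#1, and 6 and 3 with siYAP/TAZ#2. Those counts of lower genes stood above the share of 1905 and 2037 in 21581 genes. Those of higher genes stood below the share of 5876 and 6538. The medians were then -0.14 and -0.05, beside 0.20 and 0.21 over all genes tested.

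Genes for enzymes that act on the stability of SNAI, ZEB or TWIST proteins were called in both directions, in proportions that depended on the scaling. Of 19 tested, 5 were lower and 6 higher with siYAP/TAZ#1, and 4 and 8 with siYAP/TAZ#2, with medians of -0.06 and 0.02. With library size alone the counts were 2 lower and 8 higher, and 2 and 10, with medians of 0.12 and 0.21, beside 0.20 and 0.21 over all genes tested. After TMM scaling the counts of lower genes were near the background and those of higher genes above it. FBXL14, a ubiquitin ligase subunit for SNAI1, fell by 0.41 ± 0.099 and 0.92 ± 0.10 (edgeR adjusted p = 0.00372 and 2.39e-06), while the deubiquitinase gene USP51 rose by 0.75 ± 0.13 and 1.03 ± 0.13 (edgeR adjusted p = 0.000195 and 6.8e-06). The kinase gene PRKD1 rose by 0.46 and 0.72 and the ubiquitin ligase gene SIAH1 by 0.46 and 0.42, and FBXO45 fell by 0.46 and 0.66. The kinase gene GSK3B and the ubiquitin ligase subunit BTRC, which together mark SNAI1 for degradation, went in opposite directions with the combinations. GSK3B changed little, by -0.14 ± 0.050 and 0.16 ± 0.050 (edgeR adjusted p = 0.0333 and 0.0159). BTRC fell by 0.50 ± 0.097 with siYAP/TAZ#1 (edgeR adjusted p = 0.000736) and rose by 0.49 ± 0.096 with siYAP/TAZ#2 (edgeR adjusted p = 0.000717), a difference of 0.98 ± 0.097 (edgeR adjusted p = 1.88e-06).

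More epithelial genes were called higher than lower, under both scalings. Of 21 other regulators of epithelial identity tested, 13 were higher and 1 lower with siYAP/TAZ#1, and 14 and 0 with siYAP/TAZ#2, with medians of 0.50 and 0.54. With library size alone the counts were 16 and 1, and 14 and 0. The higher counts stood above the background of 16.4% and 19% after TMM scaling. Under library size alone they stood above the share of 5876 and 6538 in 21581 genes. TP63, the gene for the basal cell factor p63, rose by 2.18 and 2.30 on the log2 scale from 0.815 CPM, and the ETS factor gene SPDEF rose by 1.92 and 1.75. CDX2 rose by 1.42 and 1.20 from 0.406 CPM, and TFCP2L1, a grainyhead relative, by 0.99 and 0.89. EHF, the ETS factor closest in kind to ELF3, rose from 5.19 to 7.20 and 10.3 CPM (0.47 ± 0.13 and 0.99 ± 0.13, edgeR adjusted p = 0.00958 and 1.3e-05), and KLF5 rose by 0.33 and 0.19, whereas KLF4 was not called against siCo. Of 33 epithelial effectors tested, 18 were higher and 4 lower with siYAP/TAZ#1, and 21 and 5 with siYAP/TAZ#2. With library size alone they were 21 and 3, and 23 and 2. The tight junction genes TJP3 and CLDN2 rose by 2.88 and 2.13 with siYAP/TAZ#1 and by 2.64 and 2.15 with siYAP/TAZ#2. Their siCo levels were 1.04 and 17.7 CPM. SPINT1, a protease inhibitor gene, rose by 1.88 and 1.80 from a low 0.282 CPM. The receptor gene ERBB3 rose by 1.36 and 1.10 from 2.49 CPM, and the polarity gene LLGL2 by 1.01 and 1.14 from 62.4 CPM. CDH1, the classical target of SNAI and ZEB repression, rose from 25.5 CPM to 53.6 and 37.8 CPM, by 1.07 ± 0.072 and 0.57 ± 0.073 (edgeR adjusted p = 1.42e-08 and 1.28e-05). EPCAM rose from 2.26 to 3.22 and 3.12 CPM (edgeR adjusted p = 0.0329 and 0.0489). In the opposite direction, the junction genes CLDN1, OCLN and TJP1 fell with both combinations.

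Mesenchymal effectors other than VIM did not move together. Of 27 tested, 11 were lower and 6 higher with siYAP/TAZ#1, and 11 and 5 with siYAP/TAZ#2, with medians of -0.18 and -0.09. With library size alone the medians were -0.00 and 0.09, beside 0.20 and 0.21 over all genes tested. The latter scaling gave 8 lower and 9 higher with siYAP/TAZ#1, and 7 and 10 with siYAP/TAZ#2. After TMM scaling the counts of lower genes were above the background and those of higher genes near it. AXL, a receptor tyrosine kinase gene, fell by 1.05 and 1.13, and NT5E, the gene for CD73, by 1.11 and 0.89. CDH2, the gene for N-cadherin, fell from 73.8 to 54.1 and 59.3 CPM (-0.45 ± 0.081 and -0.32 ± 0.081, edgeR adjusted p = 0.000364 and 0.00527). FN1, the gene for fibronectin, rose from 156.8 to 277.7 and 264.9 CPM (0.82 ± 0.051 and 0.76 ± 0.051, edgeR adjusted p = 4.65e-09 and 9.75e-09), and ACTA2 rose by 0.75 and 1.28. LOX, the gene for lysyl oxidase, rose by 0.93 and 0.97 from 0.508 CPM.

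**Figure D5:**
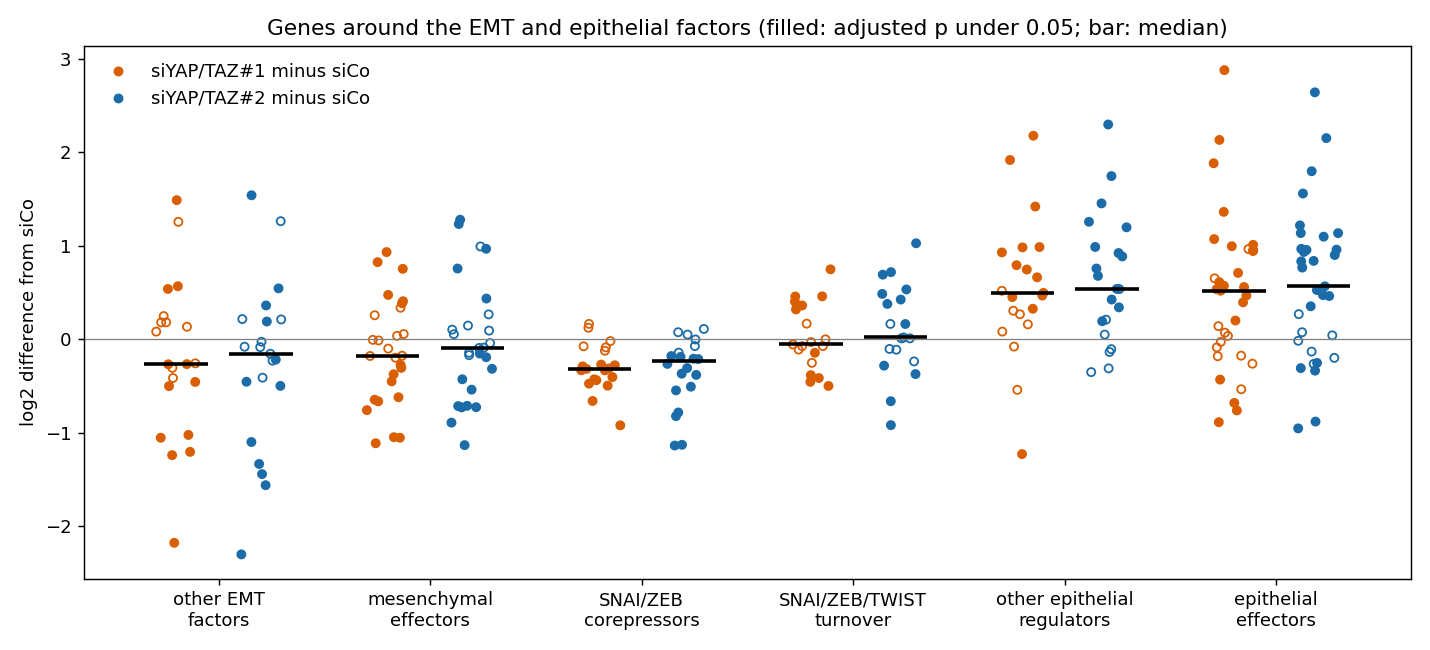
Log2 differences from siCo of every tested gene in 6 lists around the members, after TMM scaling, with filled points where the edgeR adjusted p was under 0.05 and a bar at the median. The medians of the epithelial lists lie at 0.50 to 0.57, those of the corepressors at -0.31 and -0.24, and those of the other EMT factors and mesenchymal effectors between -0.27 and -0.09. Library size alone moves these last medians toward or above 0, and the median over all genes tested from 0.02 to 0.20 and 0.21.

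Markers of other cell types were largely at or near 0. In all 3 groups under 1 CPM on average were 8 of 8 endothelial, 6 of 8 leukocyte and 8 of 10 fibroblast markers, and MS4A1 had 0 counts in all 12 libraries. The summed fibroblast markers were 113.0 to 123.7 CPM in siCo, 150.9 to 181.9 CPM with siYAP/TAZ#1, and 118.9 to 177.4 CPM with siYAP/TAZ#2, and only COL1A1 and THY1 of that list reached 1 CPM. COL1A1, at 110 CPM in siCo, was called higher with siYAP/TAZ#1 (0.47 ± 0.11, edgeR adjusted p = 0.00291). With siYAP/TAZ#2 it was not called (0.09 ± 0.11, edgeR adjusted p = 0.561). THY1, at 7.69 CPM in siCo, rose by 0.39 ± 0.10 and 1.23 ± 0.10 (edgeR adjusted p = 0.00779 and 9.67e-08). The fibroblast list shared 6 genes with the list of mesenchymal effectors, COL1A1 and THY1 included. The summed leukocyte markers were 6.23 to 7.27 CPM in siCo, 11.5 to 13.3 CPM with siYAP/TAZ#1, and 11.5 to 14.7 CPM with siYAP/TAZ#2, so that both treated groups lay above the controls. Of these, CD14 rose by 1.38 ± 0.15 and 1.67 ± 0.15 (edgeR adjusted p = 2.68e-06 and 2.6e-07). The summed endothelial markers overlapped between all groups, at 0.788 to 1.75 CPM. The part of these marker changes in the results was not tested.

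Of 10 alveolar and lung adenocarcinoma markers, which belong to the lineage of A549 itself, 8 were under 1 CPM on average in all 3 groups, and SFTPA1 had 0 counts in every library. ABCA3, a lipid transporter gene of alveolar type II cells, stood at 126.1 CPM in siCo and rose by 0.34 ± 0.064 and 0.37 ± 0.064 (edgeR adjusted p = 0.000553 and 0.000259). NAPSA rose by 0.72 and 0.86 from 0.831 CPM. The sum of this list was 124.9 to 130.8 CPM in siCo, 149.5 to 168.1 CPM with siYAP/TAZ#1, and 154.0 to 186 CPM with siYAP/TAZ#2. The epithelial keratin KRT8 stood at 2383 CPM in siCo and was not called with either combination (edgeR adjusted p = 0.595 and 0.559). KRT18 stood at 844.6 CPM in siCo and was called lower with siYAP/TAZ#2 alone (-0.25 ± 0.087, edgeR adjusted p = 0.0304). KRT19 rose from 154.5 to 227.5 and 275.2 CPM (edgeR adjusted p = 0.000656 and 1.32e-05).

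Antisense and neighbouring transcripts were measured where possible. ZEB1-AS1 was at 2.81 CPM in siCo, 2.98 with siYAP/TAZ#1 and 2.47 with siYAP/TAZ#2, with no call while ZEB1 itself fell. VIM-AS1 was at 7.02, 4.99 and 4.75 CPM and was not called either (edgeR adjusted p = 0.296 and 0.22). SNAI3-AS1 rose from 14.0 to 26.0 and 18.1 CPM (0.89 ± 0.10 and 0.37 ± 0.11, edgeR adjusted p = 5.7e-06 and 0.0109). ZEB2-AS1 and OVOL1-AS1 held at most 2 counts in any library.

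The genes with the pattern most like each member over the 12 libraries were found among 11209 protein-coding genes, by the root mean square difference of log2 CPM centred on siCo. SNAI2 was nearest to RUNX2, DUSP7 and KRT80 (0.153 to 0.154), and ELF3 to DHRS3, C1QTNF6 and SMOC1 (0.0874 to 0.1). For SNAI1 they were UBE2C, RRP12 and ERCC2, for ZEB1 DESI2, GNAI3 and NUDT21, for ZEB2 TYW5, PRKAA1 and CAPRIN2, for TWIST1 EIF3F, ANAPC11 and FGD1, and for VIM MCM5, GEMIN7 and COA4. None of these 21 genes was another member, and 4 of them were also among the nearest on log2(TPM + 0.1).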

How the data were processed

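RNA-seq libraries were prepared from total RNA of A549 cells, restricted to an RNA integrity number above 7 per the labels' protocols. Per library, the authors deposited estimated counts and TPM per gene. Per the submitters' processing notes, the tools were kallisto 0.4.6 and Trim Galore 0.6.4 and the build GRCh38.p13, with no roles listed. The summing of transcripts to genes is not given in the sources used here. A gene name was found for 60357 of the 60617 identifiers. Estimated counts were rounded, filtered with edgeR's filterByExpr, scaled by TMM and fitted with edgeR 4.0.16 (R 4.3.3) quasi-likelihood models over all 12 libraries with group as the only term; 21581 genes were tested and p-values adjusted by Benjamini-Hochberg. Only the edgeR fitting step was tested on simulated counts, with planted changes restricted to genes of higher counts. SE is that of the fitted log2 difference. Alternatives were library size alone, DESeq2 1.42.0, other filters, limma 3.58.1 on log2 of the deposited TPM with pseudocounts of 1 and 0.1, fits of 2 groups only, a replicate block and leaving out each library; limma on TPM with TMM factors was added after seeing the data. The members and lists were chosen with earlier results of these data known. Named genes were the 10 members, their paralogs and fixed partner genes, up to 5 genes per list with the largest change shared by both combinations, all antisense transcripts and the 3 genes nearest in pattern to each member; further list genes named in the text (RUNX2, SOX4, ZNF703, CLDN1, OCLN, TJP1, GSK3B, BTRC, ELF3-AS1 and the other cell type markers) were chosen after their values were seen.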

Additional observations from a re-analysis of the deposited data

Results flagged for a closer look

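ZEB1 and ZEB2 differed between the siRNA combinations in a direct test (edgeR quasi-likelihood, 4 libraries each). ZEB2 was higher with siYAP/TAZ#2 than with siYAP/TAZ#1 by 0.68 on the log2 scale (adjusted p = 4.22e-05), with no overlap between the libraries, and kept this call in 18 of 21 alternatives. The 3 that lost it were the analyses on TPM. ZEB1 was lower with siYAP/TAZ#2 by 0.27, written -0.27 as a difference (adjusted p = 0.0471), kept this call in 6 of 21 alternatives and turned sign in 3. No member stood out by a single distant library in the 21 groups of 4 examined.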

How the results depend on the processing

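ELF3 was called higher than siCo with both combinations in all 21 alternatives, and SNAI2 lower with siYAP/TAZ#2 in all 21. Leaving out each library in turn gave 5 members lower and 1 higher with siYAP/TAZ#1 and 4 and 1 with siYAP/TAZ#2 every time; between the combinations it gave 0 to 2 lower and 1 to 2 higher, and 1196 to 2302 genes lower and 1291 to 2846 higher. Library size alone gave 1905 genes lower and 5876 higher with siYAP/TAZ#1, and 2037 and 6538 with siYAP/TAZ#2, against 3999 and 3531, and 4144 and 4100, with TMM, and the higher share of calls went from 46.9% to 75.5% and from 49.7% to 76.2%. On TPM (pseudocount 1, then 0.1), 156 and 172 genes were lower and 1736 and 2137 higher with siYAP/TAZ#1, 198 and 207 lower with siYAP/TAZ#2, and 39 and 49 lower and 78 and 69 higher between the combinations, where TPM with TMM factors gave 870 and 781. Members lower on TPM were 0 and 0 with siYAP/TAZ#1 and 1 and 1 with siYAP/TAZ#2. On these scales the median log2 difference over all genes tested was 0.19 and 0.33 with siYAP/TAZ#1, and 0.24 and 0.40 with siYAP/TAZ#2. Between the combinations the members called lower were 0 with library size alone, on each TPM analysis and with only 2 groups fitted, and 2 with DESeq2 and with the filter of 1 CPM; those called higher were 2 with library size alone and 0 on each TPM analysis. Signs turned for ZEB1 with siYAP/TAZ#2 against siCo on TPM (0.091 and 0.10) and against siYAP/TAZ#1 (0.15, 0.16, and 0.081 with TMM factors), and for VIM with siYAP/TAZ#2 on TPM (0.0722 and 0.0722). They also turned for differences that were never called: ZEB2 with siYAP/TAZ#2 (0.18 with library size alone, 0.00040 with no filter, 0.0084 with the 1 CPM filter, 0.056 and 0.052 on TPM, and -0.092 to 0.053 over the fits that leave out 1 library, positive without siCo replicate 2 or siYAP/TAZ#2 replicate 1), TWIST1 with siYAP/TAZ#1 (0.16, 0.012, 0.012, 0.40 and 0.45 in the same order, 0.10 on TPM with TMM factors, and -0.10 to 0.065 over the fits that leave out 1 library) and with siYAP/TAZ#2 (0.068 with library size alone, 0.31 and 0.34 on TPM). Where no value above shows it, the cause was not tested. To look for pairing, each gene's group mean was subtracted from its log2 CPM, over 11644 genes. The remaining deviations, not expression levels, were then correlated between libraries of different groups. Same-numbered libraries correlated from -0.50 to 0.60 in these deviations and others from -0.64 to 0.66. These ranges do not settle whether the replicate numbers pair libraries. In the same deviations, the replicate 4 libraries correlated with each other at 0.51, 0.53 and 0.60, while replicate 2 of the treated groups stood at -0.50. A shared batch was not tested. The replicate block gave 5 members lower and 1 higher with siYAP/TAZ#1 and changed no member's call. Depth limits GRHL2, OVOL1 and ESRP1.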
